A study of Mus musculus with 8 samples.

Results

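The E proteins and the Id proteins, a pair of transcription factor families that set each other's activity in B cell precursors, were followed in a mouse pre-B cell line with and without interleukin 7 (IL-7) and with and without a sponge for the miR-15 family. The members were the E protein genes Tcf3, Tcf4 and Tcf12 and the Id genes Id1, Id2 and Id3, chosen by name from the array annotation, 6 genes of the 34741 on the array. They were read by 9 probes of 55681, because each E protein gene had 2 probes and each Id gene had 1. All 6 genes and all 9 probes passed the filter on dim probes, which left 21321 genes for testing.

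The cells were wk3, a pre-B cell line of genotype SLP-65-/-, which lacks an adaptor protein of the pre-B cell receptor pathway. This deletion, retroviral transduction and puromycin selection were common to every group, so all values come from a single mutant line under selection. The control cells carried a scrambled sponge, and the other cells carried a miR-15 sponge, a transcript with binding sites meant to hold all members of the miR-15 family. Cells of each kind were kept in excess IL-7, supplied as supernatant of IL-7-expressing J558L cells, or were kept without IL-7 for 36 h, a step described as inducing pre-B cell differentiation. The 4 groups are called scrambled with IL-7, sponge with IL-7, scrambled without IL-7 and sponge without IL-7. Each had 2 arrays, from 2 independent experiments with independently generated clones.

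E proteins are basic helix-loop-helix transcription factors that bind the E-box motif as dimers, and Tcf3, which encodes E2A, is required for B cell development. Id proteins have the dimerisation part but no DNA-binding part, so a dimer of an Id and an E protein does not bind the motif. The balance between the families is known to govern commitment, proliferation and antigen receptor rearrangement in early lymphocytes. Id mRNAs are also known as early targets of BMP and TGF-beta signals through SMAD proteins and of EGR factors.

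The agent that separated the groups was directed at microRNAs with a common seed, the bases that pair with targets. The mature sequences of the 6 named family members, taken from RefSeq on GRCm38.p6, are shown because this shared seed is what the sponge was built against, with the seed (bases 2 to 8) in capitals.
mmu-miR-15a-5p: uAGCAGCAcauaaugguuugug
mmu-miR-15b-5p: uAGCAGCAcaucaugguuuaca
mmu-miR-16-5p: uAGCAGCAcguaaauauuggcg
mmu-miR-195a-5p: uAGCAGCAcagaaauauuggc
mmu-miR-497a-5p: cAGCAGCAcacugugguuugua
mmu-miR-322-5p: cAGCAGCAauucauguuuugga
All 6 carried the seed AGCAGCA and differed in the bases after it.

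Id2, Id3 and Tcf12 were called after IL-7 withdrawal in control cells, and their promoters are shown as the 250 bases before a RefSeq start on GRCm38.p6. They are shown because E proteins act through E-boxes and Id genes are themselves read by such factors. Id1 was also called there, but the promoter sequences used held no entry for it. Capitals mark the E-box, searched as CANNTG, which reads the same on both strands.
Id2, chr12:25096093-25096342, minus strand: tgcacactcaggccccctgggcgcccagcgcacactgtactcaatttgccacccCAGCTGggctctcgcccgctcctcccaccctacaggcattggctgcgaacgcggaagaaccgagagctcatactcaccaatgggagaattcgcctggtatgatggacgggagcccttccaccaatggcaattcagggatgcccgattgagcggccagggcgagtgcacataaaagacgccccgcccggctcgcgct
Id3, chr4:136143572-136143821, plus strand: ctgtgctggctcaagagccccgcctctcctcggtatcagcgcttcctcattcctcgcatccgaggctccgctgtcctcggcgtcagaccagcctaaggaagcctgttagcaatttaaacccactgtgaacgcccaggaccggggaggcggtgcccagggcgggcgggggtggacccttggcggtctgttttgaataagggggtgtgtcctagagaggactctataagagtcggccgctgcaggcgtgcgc
Tcf12, chr9:72111820-72112069, minus strand: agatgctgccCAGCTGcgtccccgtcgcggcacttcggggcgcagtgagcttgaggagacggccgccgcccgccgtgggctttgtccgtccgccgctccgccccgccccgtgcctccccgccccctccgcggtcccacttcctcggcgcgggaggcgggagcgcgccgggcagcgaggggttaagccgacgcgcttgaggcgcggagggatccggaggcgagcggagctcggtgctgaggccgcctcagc
The Id2 window held 1 E-box, CAGCTG, beginning 196 bases before the start, and this Tcf12 window held 1, also CAGCTG, 240 bases before it. Tcf12 is 1 gene with 3 starts in the table, and of its other windows 1 held CAAGTG 149 bases before the start and 1 held 0 E-boxes. The Id3 window held 0, which says only that these letters are not in this window. The motif was present in 66.2% of 32851 promoter windows of the same length, so a match is common. The letters GGCGCC, a motif linked to BMP response and the same on both strands, were in the Id2 window 231 bases before the start and in 9.6% of all windows. They were in neither the Id3 nor this Tcf12 window. The STAT motif TTCNNNGAA, the forkhead motif TGTTTAC and the EGR motif GCGGGGGCG, searched on both strands, were in none of these 3 windows, against 7.0%, 3.2% and 2.6% of all windows.

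Expression was read as Cy3 signal of single probes on 1-colour Agilent arrays. Values are given as log2 signal on a scale where 0 is each array's own 75th percentile, and differences are log2 differences ± SE with n = 2 arrays a group. A gene is called where limma's adjusted p is under 0.05 over all 21321 genes. Second probes were tested in a separate limma fit, with adjustment over all 30965 kept probes. On the 8 arrays 50.57% to 56.55% of 59305 spots were well above background, and Pearson's r across genes between the arrays of a group was 0.99 to 0.9971. The arrays of scrambled cells with IL-7 were the least alike, with 1168 genes over 1 log2 unit apart, against 193 to 519 in the other groups. All arrays lay on 1 slide, where the line of the slide coincided with IL-7 and the place in the line with the construct and replicate, so position and condition cannot be told apart. The pre-B markers Cd79a, Cd79b, Vpreb1, Igll1, Pax5, Ebf1 and Il7r were well above background on all arrays. Of other cell types, 2 of 5 T cell, 1 of 6 NK and innate lymphoid, 3 of 4 plasmacytoid dendritic and 3 of 5 myeloid markers were above background on every array. Cd3g, Ncr1 and Ccr9 were above background on no array.

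The probes sat in known genes, on mm9 as deposited. Tcf3 was read at chr10:79872639-79872698 and by a second probe at chr10:79875963-79876022, and Tcf12 at chr9:71692310-71692369 with a second probe listed at chr9:71692059-71692086. Id1 lay at chr2:152563083-152563142, Id2 at chr12:25778904-25778963 and Id3 at chr4:135700075-135700249, a span longer than its 60 bases. The Id3 probe and the second Tcf3 probe each had 1 reading frame without a stop, and are shown because the first carried the largest fall among the members and the other had the opposite sign to its gene's first probe in control cells.
Id3 probe: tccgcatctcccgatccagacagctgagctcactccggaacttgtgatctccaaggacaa
Tcf3 second probe: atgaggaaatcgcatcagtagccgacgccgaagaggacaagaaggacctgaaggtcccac

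**Figure D1:**
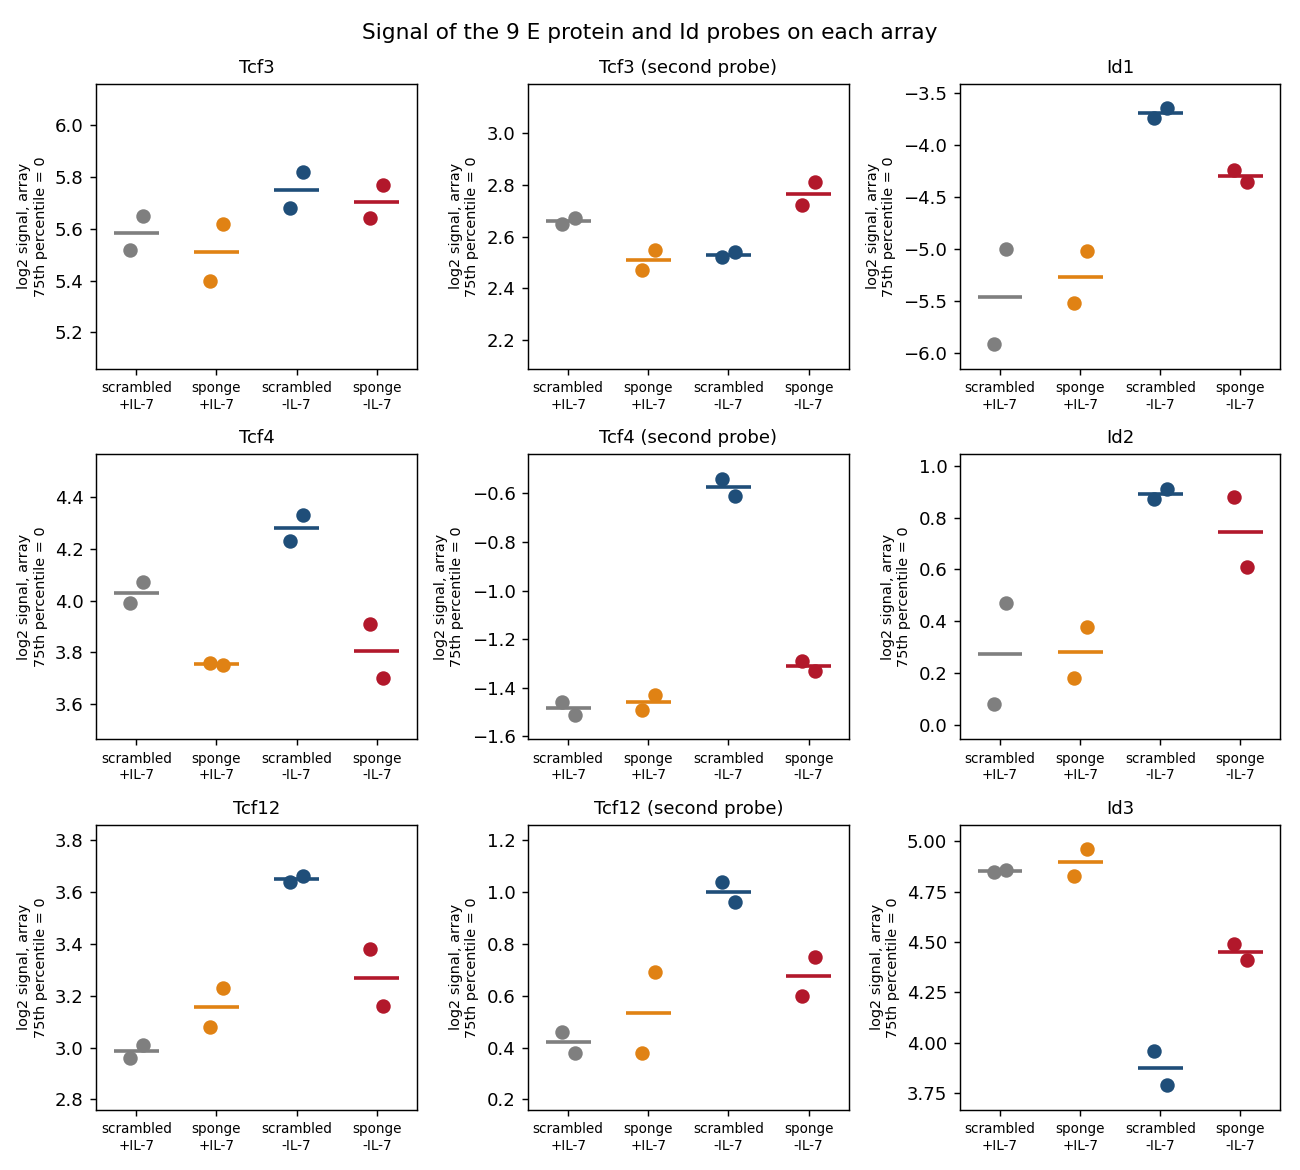
Signal of the 9 probes on each of the 8 arrays, as log2 signal with the array's 75th percentile at 0, in 4 groups of 2 arrays. Points are arrays and bars are group means, and each panel has its own axis. For Id3 the scrambled arrays without IL-7 (3.96 and 3.79) lie below all others, and for the second Tcf4 probe (-0.54 and -0.61) they lie above all others.

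The first comparison asked what IL-7 withdrawal did to the families in control cells. Tcf12 and Id2 mRNA rose, Id3 mRNA fell, Id1 was called higher over a baseline near background, and Tcf3 and Tcf4 did not pass on the probes that represented them. Thus 4 of 6 members were called, 3 higher and 1 lower, where 48.1% of all genes were called in either direction, 20.7% higher and 27.4% lower. The median difference of the members was 0.43, against -0.02 over all genes. Id1 passed the filter on dim probes only through the groups without IL-7, where it is high, so it is no support for that count or that median.

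Tcf3, the source of E12 and E47, stood at 5.52 and 5.65 in scrambled cells with IL-7 and at 5.68 and 5.82 without. The groups did not overlap, though the nearest arrays of opposite groups were closer than the replicates of a group. Within each experiment the difference was 0.17. The difference was 0.17 ± 0.11 (adjusted p = 0.264, 95% confidence interval -0.11 to 0.45). The second Tcf3 probe stood at 2.65 and 2.67 with IL-7 and at 2.52 and 2.54 without, lower without IL-7, with a difference of -0.13 (adjusted p = 0.206). The 2 probes thus had opposite signs, and neither passed. Scaling moved this gene: the first probe differed by 0.54 after quantile normalization (adjusted p = 0.011) and by 0.58 in the deposited value table (adjusted p = 0.00984), both calls, while the second probe was then at 0.01 after quantile normalization.

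Tcf4, which encodes E2-2, was read at chr18:69842843-69842902 and by a second probe at chr18:69847562-69847621, again mm9. The first probe stood at 3.99 and 4.07 with IL-7 and at 4.23 and 4.33 without. The groups did not overlap. The difference of 0.25 ± 0.09 did not pass (adjusted p = 0.0725), and became a call at 0.47 after quantile normalization (adjusted p = 0.00567) and in the deposited value table (adjusted p = 0.00609). The second, dimmer Tcf4 probe stood at -1.46 and -1.51 with IL-7 and at -0.54 and -0.61 without, well apart on all arrays. It rose by 0.91 ± 0.07 (adjusted p = 0.000515), so the probes of this gene agreed in direction and differed in size.

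Tcf12, which encodes HEB, stood at 2.96 and 3.01 with IL-7 and at 3.64 and 3.66 without. The groups were separated by far more than the gaps between replicates. It rose by 0.67 ± 0.10 (adjusted p = 0.00319), 1.59-fold, and by 0.68 and 0.65 within the first and second experiment. Its second probe stood at 0.46 and 0.38 with IL-7 and at 1.04 and 0.96 without. That probe rose by 0.58 (adjusted p = 0.0128).

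Id1, an inhibitor whose mRNA is often low in lymphocytes, gave a processed signal of 4.9 and 11.8 in scrambled cells with IL-7 and of 26.1 and 29.5 without. With IL-7 this probe cleared the background test on 1 array and missed it on the other, and it cleared it on both arrays without IL-7, so its lower level is poorly measured. On the log2 scale the arrays were at -5.91 and -5.00 with IL-7 and at -3.74 and -3.65 without, which do not overlap. The array that missed the test was also set to its floor, the lowest signal well above background there (-5.30). The group means then differed by 1.45 on the log2 scale, 2.74-fold. That is an estimate and not a lower bound, since the second experiment alone differed by 1.35. The fit on the measured values gave 1.76 ± 0.32 (adjusted p = 0.00588). It gave 1.30 without scrambled with IL-7 replicate 1 (adjusted p = 0.00848), and 0.33 under normexp background correction with an offset of 50, which draws dim probes together (adjusted p = 0.0106).

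Id2, an inhibitor needed by innate lymphoid cells, stood at 0.08 and 0.47 with IL-7 and at 0.87 and 0.91 without. The arrays with IL-7 were lower and also far apart from each other. It rose by 0.62 ± 0.16 (adjusted p = 0.0239), by 0.80 in the first experiment and 0.44 in the second. This call depended on single arrays: it was 0.43 without scrambled with IL-7 replicate 1 (adjusted p = 0.0761), 0.64 without scrambled without IL-7 replicate 1 (adjusted p = 0.0848) and 0.60 without replicate 2 of that group (adjusted p = 0.103). With no filter on dim probes its adjusted p was 0.054.

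Id3, an inhibitor that restrains E2A in lymphocytes, stood at 4.85 and 4.86 in scrambled cells with IL-7 and at 3.96 and 3.79 without. The arrays without IL-7 were both low and the groups were far apart. It fell by 0.98 ± 0.09 (adjusted p = 0.000593), a 1.98-fold lower signal, and only 7.87% of all genes had a lower difference. The fall was 0.90 in the first experiment and 1.07 in the second, and 0.78 after quantile normalization (adjusted p = 0.00111). In bulk cultures, fewer cells with an mRNA and less of it per cell cannot be told apart. Among marker lists, the summed signal, in units of the array's 75th percentile, was higher in scrambled cells without IL-7 for the NK and innate list (0.732 to 0.807, against 0.422 to 0.489 on the other 6 arrays). It was also higher there for the myeloid list (26.6 to 26.9, against 13.4 to 20.7 on those 6) and the pre-B list (1520 to 1550, against 1240 to 1450). For the T cell list it was lower than in scrambled cells with IL-7 (4.44 to 4.49, against 5.09 to 5.27). The erythroid sum was lower too (0.0586 to 0.0989, against 0.113 to 0.116). In the NK and innate list and in the myeloid list, a single gene carried most of the difference between scrambled cells without and with IL-7. On the processed signal, not scaled to the array, Klrd1 had a mean of 116.5 in scrambled cells without IL-7 and 13.2 with it, and Itgam 9338 and 5719. In the NK and innate list Klrb1c (141.4 and 110.6), Il1rl1 and Zbtb16 also had higher means without IL-7, and Ncr1 and Gata3 had lower ones. Of these, Klrb1c was well above background on 8 arrays, Zbtb16 on 3, Gata3 on 1, and Il1rl1 and Ncr1 on 0. In the myeloid list Csf1r was nearly level on that unscaled signal, at 230.4 and 226.5, which gives no direction. The others, Lyz2 and Adgre1 among them, had lower means without IL-7. The sum over plasmacytoid markers overlapped between scrambled cells with IL-7 (145 to 197) and without (176 to 186). The part of these lists in the changes of Id2 and Tcf4 was not tested.

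**Figure D2:**
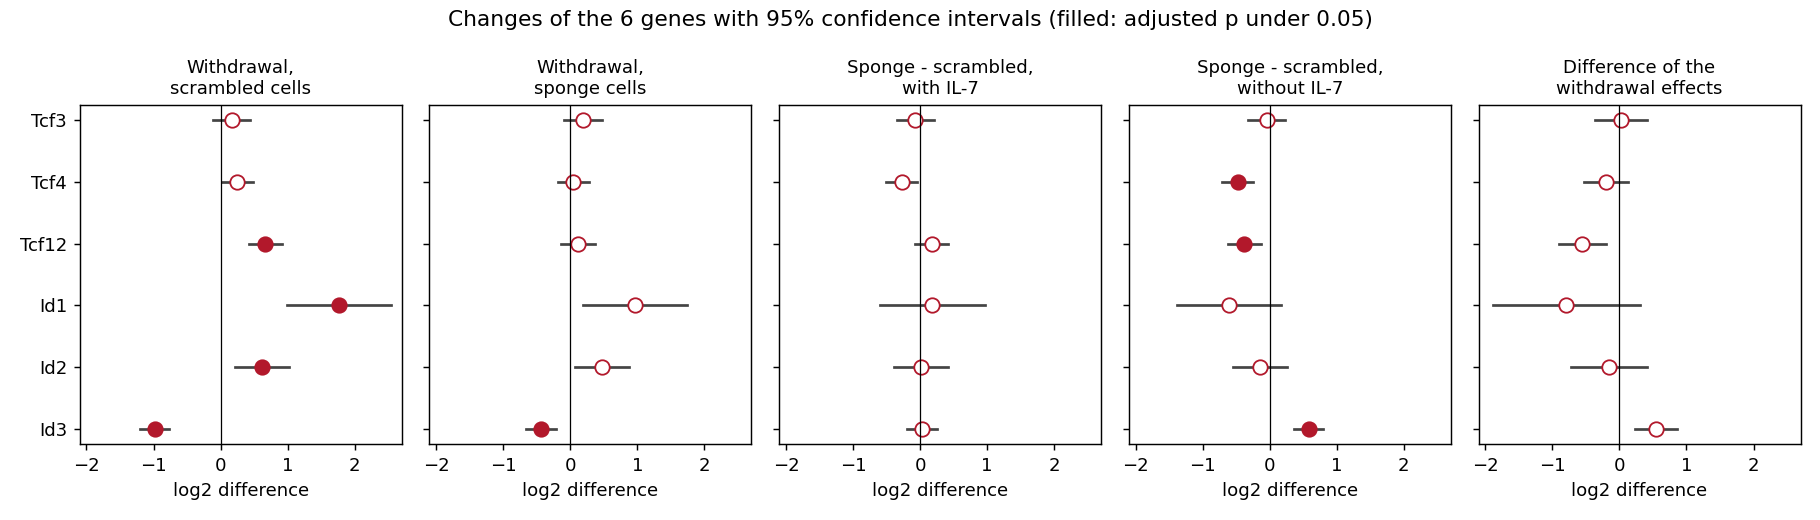
Log2 differences of the 6 genes in the 5 comparisons, with points for the estimate, lines for the 95% confidence interval and filled points for an adjusted p under 0.05. Id3 is at -0.98 after withdrawal in scrambled cells and -0.44 in sponge cells, and all points of the sponge comparison with IL-7 are open.

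The same withdrawal in miR-15 sponge cells, measured on 4 other arrays, lowered Id3 and left the other 5 members without a call. That is 1 of 6 called, 0 higher and 1 lower, against 23.2% of all genes, 7.92% higher and 15.2% lower. The median of the members was 0.15, and that of all genes -0.07. By unadjusted p under 0.05 the count was 3.

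No E protein gene was called on the probe that represented it, though the Tcf3 difference was no smaller than in scrambled cells (0.17 there). Tcf3 stood at 5.40 and 5.62 in sponge cells with IL-7 and at 5.64 and 5.77 without, a difference of 0.19 (adjusted p = 0.281, interval -0.09 to 0.47). The arrays did not overlap but were close, and quantile normalization gave a call at 0.51 (adjusted p = 0.0326). Tcf4 stood at 3.76 and 3.75 with IL-7 and at 3.91 and 3.70 without, overlapping groups with a difference of 0.05 (adjusted p = 0.765, interval -0.18 to 0.28). Tcf12 stood at 3.08 and 3.23 with IL-7 and at 3.38 and 3.16 without, also overlapping, with a difference of 0.11 (adjusted p = 0.471, interval -0.13 to 0.36). The second probes gave 0.26 for Tcf3 (adjusted p = 0.0625), 0.15 for Tcf4 (adjusted p = 0.212) and 0.15 for Tcf12 (adjusted p = 0.468), and none passed.

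Of the Id genes, Id1 gave a signal of 8.0 and 11.1 in sponge cells with IL-7 and of 21.3 and 19.9 without. Here too it cleared the background test on a single array with IL-7 and on both without. With the dim array set to its floor (-5.23), the group means differed 1.77-fold. That too is an estimate and not a lower bound, since the second experiment alone gave a log2 difference of 0.66. Id1 passed the filter only through the groups without IL-7, where it is high. The fit on the measured values gave a log2 difference of 0.97 ± 0.32, which was not called (adjusted p = 0.0795), and of 0.10 under normexp (adjusted p = 0.416). Without either array of scrambled cells with IL-7, which enter this contrast only through the shared spread, the adjusted p was 0.0206. Id2 stood at 0.18 and 0.38 with IL-7 and at 0.88 and 0.61 without, higher without overlap, with a difference of 0.47 (adjusted p = 0.0953). Id3 stood at 4.83 and 4.96 with IL-7 and at 4.49 and 4.41 without. The groups were apart, and Id3 fell by 0.44 ± 0.09 (adjusted p = 0.0214), 1.35-fold. This call was lost without sponge with IL-7 replicate 2 (-0.37, adjusted p = 0.112), without sponge without IL-7 replicate 1 (-0.48, adjusted p = 0.0684) and without replicate 2 of that group (-0.40, adjusted p = 0.112). Quantile normalization gave -0.21 (adjusted p = 0.144) and the deposited value table -0.21 (adjusted p = 0.14), and with no filter the adjusted p was 0.0636.

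Scaling moved the balance of calls over all genes. Of the called genes, the higher ones made up 43.1% in scrambled cells and 34.2% in sponge cells under the 75th percentile, and 51.2% and 51.6% after quantile normalization. In the deposited value table, which has the same distribution on every array, they made up 51.4% and 51.5%. Among the members, the differences of Tcf3, Tcf4, Tcf12 and Id3 all moved upward under those scalings and those of Id1 and Id2 moved by less than 0.10, as the plot of withdrawal effects under other ways of processing shows.

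**Figure D3:**
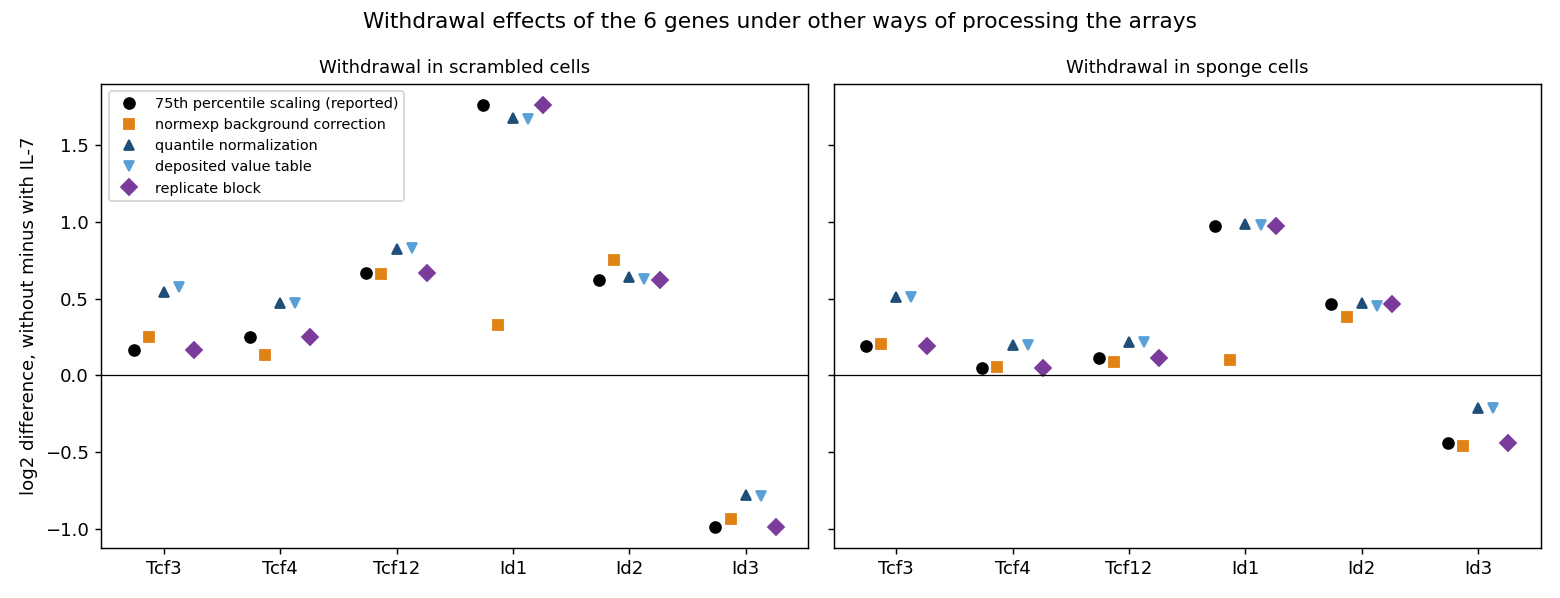
Log2 difference of the 6 genes after IL-7 withdrawal in scrambled cells (left) and sponge cells (right) under 5 ways of processing, each with its own symbol. The Tcf3 difference in scrambled cells is 0.17 as reported and 0.54 after quantile normalization, and the Id1 difference is 1.76 as reported and 0.33 under normexp.

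The next comparison asked whether the sponge altered the families while IL-7 was present. No member was called by limma, 0 of 6, where 1.13% of all genes were, 0.314% higher and 0.816% lower, and no alternative processing called any. At an unadjusted p under 0.05 there was 1, Tcf4, which stood at 3.99 and 4.07 in scrambled and 3.76 and 3.75 in sponge cells, without overlap, a difference of -0.27 ± 0.09 (adjusted p = 0.201, interval -0.50 to -0.04). Its second probe gave 0.02 (adjusted p = 0.872), with overlapping groups. The other differences were -0.07 for Tcf3 (interval -0.35 to 0.21), 0.17 for Tcf12 (-0.07 to 0.42), 0.19 for Id1 (-0.59 to 0.96), 0.01 for Id2 (-0.39 to 0.41) and 0.03 for Id3 (-0.19 to 0.26). Id1 had the widest of these intervals.

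Without IL-7, sponge and scrambled cells differed in 3 of 6 members: Tcf4 and Tcf12 mRNA was lower and Id3 mRNA was higher in the sponge cells. All genes were called at 32.1%, 16.7% higher and 15.3% lower. This comparison shares its scrambled arrays with the first withdrawal comparison, so the same 2 arrays that were high in Tcf12 and low in Id3 there enter here.

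Tcf4 stood at 4.23 and 4.33 in scrambled and at 3.91 and 3.70 in sponge cells without IL-7, lower in the sponge cells with no overlap. It was lower by a log2 difference of -0.48 ± 0.09 (adjusted p = 0.0128), and -0.33 and -0.63 within the experiments. The call was lost without scrambled without IL-7 replicate 2 (-0.43, adjusted p = 0.083) and without sponge without IL-7 replicate 2 (-0.37, adjusted p = 0.0568). The second probe stood at -0.54 and -0.61 in scrambled and at -1.29 and -1.33 in sponge cells, a clear gap, and its difference of -0.74 ± 0.07 (adjusted p = 0.00191) was called without any single array. Tcf12 stood at 3.64 and 3.66 in scrambled and at 3.38 and 3.16 in sponge cells, lower without overlap, a difference of -0.38 ± 0.10 (adjusted p = 0.0353). Tcf12 lost this call in 5 of the 16 alternatives. With the experiment as a block, the adjusted p was 0.0561 and Tcf12 was not called. It was also not called without scrambled without IL-7 replicate 1 (-0.39, adjusted p = 0.127) or 2 (-0.37, adjusted p = 0.144), or without sponge without IL-7 replicate 2 (-0.27, adjusted p = 0.145). Its second probe gave -0.32 (adjusted p = 0.109). Tcf3 differed by -0.05 on its first probe (adjusted p = 0.792, interval -0.32 to 0.23) and by 0.24 on its second (adjusted p = 0.0611).

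Id3 stood at 3.96 and 3.79 in scrambled and at 4.49 and 4.41 in sponge cells without IL-7. Both sponge arrays were higher, and the difference of 0.58 ± 0.09 (adjusted p = 0.00576), 1.49-fold, was 0.54 and 0.62 within the experiments. It stayed a call without any single array, with a highest adjusted p of 0.041. Id1 stood at -3.74 and -3.65 in scrambled and at -4.24 and -4.36 in sponge cells, lower without overlap but not called, a difference of -0.61 ± 0.32 (adjusted p = 0.201, interval -1.38 to 0.17). Id2 stood at 0.87 and 0.91 in scrambled and at 0.88 and 0.61 in sponge cells, overlapping, a difference of -0.14 (adjusted p = 0.552).

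Ordered by group means, Tcf12 was highest in scrambled cells without IL-7 (3.65), then in sponge cells without (3.27), sponge cells with (3.16) and scrambled cells with IL-7 (2.98). The arrays of the middle pair overlapped, and the last pair did not but differed by 0.17, which did not pass. Id3 ran from sponge cells with IL-7 (4.89) and scrambled cells with IL-7 (4.86), whose arrays overlapped, through sponge cells without (4.45) to scrambled cells without IL-7 (3.87). Tcf4 ran from scrambled cells without IL-7 (4.28) and with it (4.03) to sponge cells without (3.80) and with it (3.76), the last pair overlapping and the others apart, though the first step of 0.25 did not pass. Id1 and Id2 had their highest mean in scrambled cells without IL-7, at -3.69 and 0.89, and next in sponge cells without it, at -4.30 and 0.75, and their means with IL-7 were at -5.27 or lower and at 0.28 or lower. For Tcf3 the 4 means lay between 5.51 and 5.75 and no neighbours in the order differed by more than the gaps between replicates.

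The last comparison asked whether withdrawal acted differently in the 2 kinds of cells, as the difference of the withdrawal effects, sponge minus scrambled. None of 6 members was called by limma, against 5.27% of all genes, 4.32% higher and 0.952% lower, although 2 had an unadjusted p under 0.05. These were Tcf12, at -0.55 ± 0.14 (unadjusted p = 0.00874, adjusted p = 0.0878), and Id3, at 0.55 ± 0.13 (unadjusted p = 0.0055, adjusted p = 0.0696). Both passed after quantile normalization (Tcf12 -0.60, adjusted p = 0.042, and Id3 0.57, adjusted p = 0.0493) and in the deposited value table (adjusted p = 0.0417 and 0.0447). With the experiment as a block their adjusted p was 0.126 and 0.101. Tcf3 was at 0.02, Tcf4 at -0.20, Id1 at -0.79 ± 0.45 (interval -1.89 to 0.31) and Id2 at -0.15, none called. The second Tcf4 probe had a difference of -0.76 ± 0.10 (adjusted p = 0.0359), from 0.91 in scrambled to 0.15 in sponge cells. That call ended with the experiment as a block (adjusted p = 0.0595) and without any 1 array other than scrambled with IL-7 replicate 2 (adjusted p = 0.0445 without it).

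E protein target genes known from B cell precursors numbered 22, and all were tested. In scrambled cells 10 rose and 4 fell (63.6% called, median 0.16), and in sponge cells 8 rose and 3 fell (50% called, median 0.08), beside the 48.1% and 23.2% of all genes. Rag1 and Rag2, the recombinase that cuts antigen receptor gene segments, rose by 3.59 ± 0.27 and 2.21 ± 0.18 in scrambled cells and by 3.42 and 2.06 in sponge cells. Irf4, a factor of pre-B cell maturation, rose by 1.20 and 0.94, and Foxo1, an activator of the recombinase genes, by 0.81 and 0.71. Cdkn1a, the cell cycle inhibitor p21, fell by 1.83 in scrambled cells (adjusted p = 0.000247), while in sponge cells it was at -0.23 (adjusted p = 0.163). Gfi1b, a repressor named as an E2A target, fell by 0.94 in scrambled cells and was at -0.11 in sponge cells (adjusted p = 0.4). The deposited value table gave 16 higher and 3 lower in scrambled cells. In sponge cells the count of higher targets was between 3 and 5, and that of lower targets between 0 and 2, without any 1 array outside the group of scrambled cells with IL-7.

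Between constructs, 11 of 22 targets were lower and 2 higher in sponge cells without IL-7 (median -0.30, and -0.05 over all genes), where 15.3% of all genes were lower and 16.7% higher. Rag1 was lower by a difference of -2.56 and Rag2 of -1.71 (adjusted p = 0.00173 and 0.0018), and Cdkn1a was higher by 1.83 and Gfi1b by 0.88. The lower count fell to 5 and 2 without replicate 1 or 2 of scrambled cells without IL-7 and to 4 without either sponge array. With IL-7, 0.816% of all genes were lower and 0.314% higher, and in the difference of the withdrawal effects 5.27% were called. Of the 22 targets with IL-7, 2 were lower, Rag1 at -2.40 (adjusted p = 0.0253) and Rag2 at -1.56 (adjusted p = 0.0287), and 0 were higher. Those 2 calls were lost in 7 of the 8 fits without 1 array, with adjusted p between 0.0522 and 0.115, and held without scrambled with IL-7 replicate 2. In the difference of the withdrawal effects, Cdkn1a (1.61, adjusted p = 0.0307) and Gfi1b (0.83, adjusted p = 0.0316) were called, and neither with the experiment as a block (adjusted p = 0.0508 and 0.053) or in 6 of the 8 fits without 1 array.

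The partners, co-regulators and stability factors of the families held 19 genes, of which 12 were tested and 7 were too dim. In scrambled cells 2 rose and 6 fell after withdrawal (66.7% called, median -0.30), where 20.7% of all genes rose and 27.4% fell. The falls included Skp2, a subunit of a ubiquitin ligase, by 1.99, Usp1, a deubiquitinase known to stabilise Id proteins, by 1.53, Hes1, a repressor and Notch target, by 0.88, and Lyl1, a helix-loop-helix partner of E proteins, by 0.50. After quantile normalization 3 rose and 3 fell, and Lyl1 was not called (adjusted p = 0.344). In sponge cells 1 rose and 2 fell, 25% called, near the 23.2% of all genes. Cbfa2t3, a corepressor that binds E proteins, rose by 0.63, Lyl1 fell by 0.46 and Skp2 fell by 0.67 (adjusted p = 0.0469, and 0.0752 with the experiment as a block). The sponge calls numbered 0 or 1 in each direction without any 1 array outside the group of scrambled cells with IL-7, and quantile normalization gave 0 lower.

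Between constructs without IL-7, 5 of the 12 partners were higher in the sponge cells and 3 lower, 66.7% called against 32.1% of all genes. Crebbp, a coactivator that acetylates histones, was lower by a difference of -1.52 (adjusted p = 0.00111), and Skp2 and Usp1 were higher by 1.59 and 1.41. Stub1, a ubiquitin ligase that acts with chaperones, was higher by 0.75. The lower count was 1 without either scrambled array or without sponge replicate 2. With IL-7, where 1.13% of all genes were called, only Crebbp was, at -1.12 (adjusted p = 0.00846). It was not called without sponge with IL-7 replicate 1 or 2. In the difference of the withdrawal effects 5.27% of all genes were called. The withdrawal effects differed for Hes1 (0.98), Usp1 (1.12) and Skp2 (1.33), all higher in sponge cells, and for none with the experiment as a block (adjusted p = 0.0549, 0.0508 and 0.0773) or in 6 of the 8 fits without 1 array.

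Known inputs to Id gene transcription, the BMP and TGF-beta receptors, SMADs and EGR factors, held 21 genes, 16 of them tested. After withdrawal 7 rose and 3 fell in scrambled cells (62.5% called, median 0.23) and 2 rose and 2 fell in sponge cells (25% called, median 0.01), beside 48.1% and 23.2% of all genes called. The sponge share is near that of all genes. Smad3, a TGF-beta signal carrier, rose by 1.15 in scrambled and 0.68 in sponge cells, and Tgfbr2, a TGF-beta receptor, by 0.69 and 0.37. Acvr1, a receptor for BMPs, fell by 0.91 and 0.52, and Skil, an inhibitor of SMADs, rose by 0.55 in scrambled cells and was at 0.11 in sponge cells (adjusted p = 0.349). The sponge calls of Tgfbr2 were lost without any of the 4 sponge arrays (adjusted p from 0.0599 to 0.0959), and that of Acvr1 without 3 of them (adjusted p from 0.0503 to 0.0665). Between constructs without IL-7, 3 of 16 were higher and 8 lower (68.8% called, 32.1% of all genes), among them Smad3 (-0.75), Tgfbr2 (-0.50) and Skil (-0.57) lower and Smad1, a BMP signal carrier, higher by 1.12. The lower count was between 3 and 5 without any 1 array outside the group of scrambled cells with IL-7, and the higher count was 0 or 1 without 3 of the 4 arrays compared. Smad1 was not called without scrambled without IL-7 replicate 2 (adjusted p = 0.055), without sponge without IL-7 replicate 1 (adjusted p = 0.0525) or under normexp (adjusted p = 0.0889). With IL-7, and in the difference of the withdrawal effects, limma called 0 of 16, beside 1.13% and 5.27% of all genes. At an unadjusted p under 0.05 there were 5 and 8. For the difference, normexp called 1 of 16 and quantile normalization called 3, all lower.

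**Figure D4:**
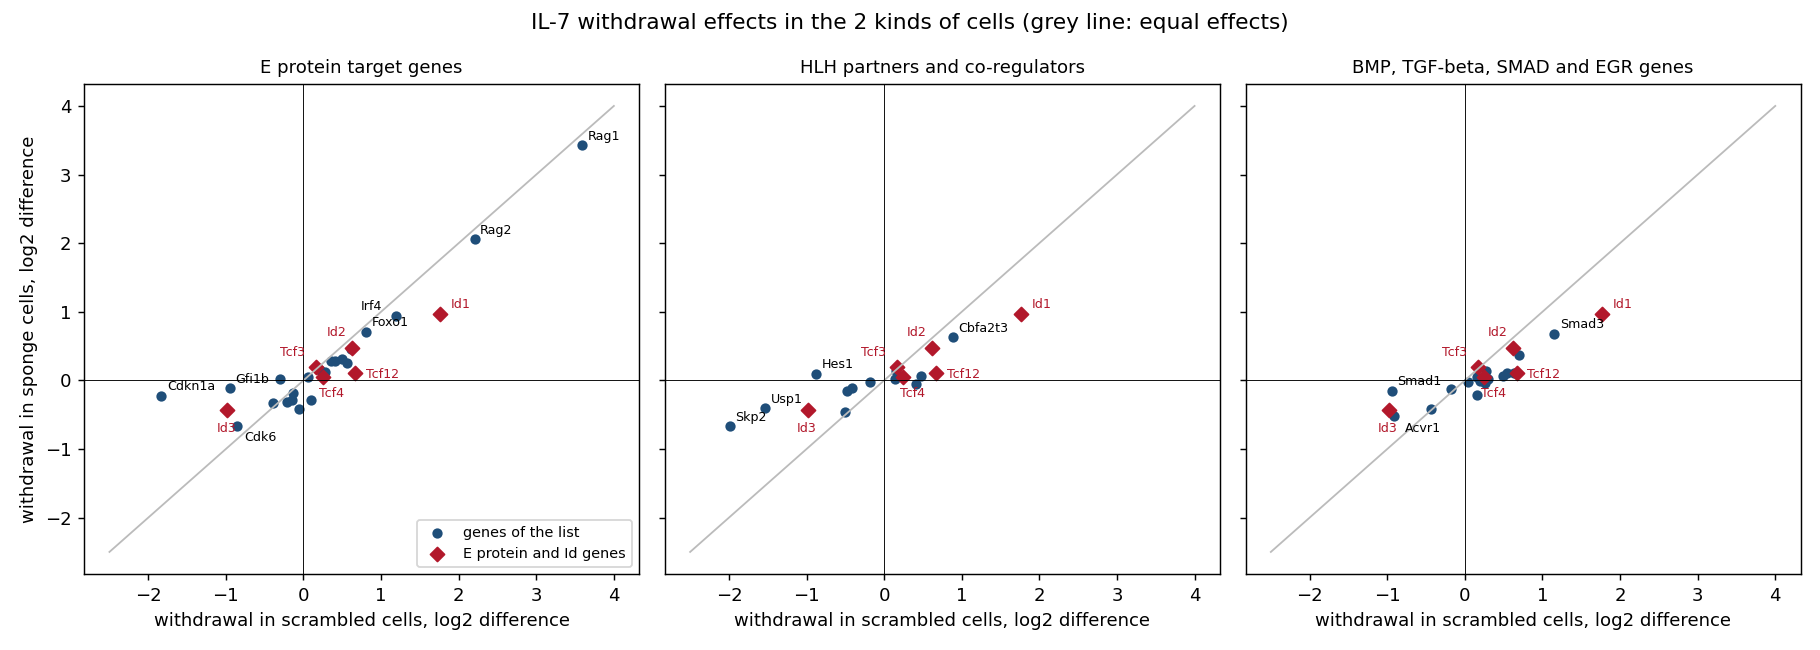
IL-7 withdrawal effects in scrambled cells (horizontal axis) and sponge cells (vertical axis), both as log2 differences on arrays that the 2 axes do not share, for 3 lists of related genes (circles) with the 6 members (diamonds) in every panel. The grey line marks equal effects. Rag1 (3.59 and 3.42) lies near it, and Cdkn1a (-1.83 and -0.23), Tcf12 (0.67 and 0.11), Id3 (-0.98 and -0.44) and Id1 (1.76 and 0.97) lie off it. By limma's test of the difference of effects, Cdkn1a was called (adjusted p = 0.0307), though not with the experiment as a block (0.0508). Tcf12, Id3 and Id1 were not called (adjusted p = 0.0878, 0.0696 and 0.349).

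The genes whose profile was nearest to each member were taken as those with the smallest root mean square difference over the 8 arrays once each gene's own mean was removed, among 14016 genes with a symbol. This likeness is a description, since all profiles share the same arrays and scaling. For Tcf12 they were Stk38l (0.06), Mfng, a glycosyltransferase that modifies Notch (0.06), and Dpp4 (0.07), beside a standard deviation of Tcf12 over the arrays of 0.27. For Tcf4, with a standard deviation of 0.23, they were Nfatc1, a calcium-regulated transcription factor, Ro60 and Pipox, each at 0.04. For Tcf3, with a standard deviation of 0.13, they were Scarb2, AU040320 and Zxdc, each at 0.04. For Id1 the nearest was Jun, a subunit of AP-1 (0.09), and Lcp2, which encodes SLP-76 (0.20), and Rab39 (0.20) followed, beside a standard deviation of 0.82. For Id2, with a standard deviation of 0.33, they were Lig4, a DNA ligase of end joining (0.09), Muc5b (0.09) and Chkb (0.10). For Id3, with a standard deviation of 0.44, they were Oat, Nsmce2 and Ddx1, each at 0.04. Their differences after withdrawal in scrambled cells, -1.03, -0.94 and -0.92, follow from their choice as nearest profiles.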

How the data were processed

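Total RNA of 8 cultures was labelled with Cy3 and hybridised to 1 array each, per the labels' protocols. Per the file headers, the deposited scanner tables hold a processed signal as intensity on a linear scale, from which background and a spatial trend were removed array by array, with no scaling across arrays. The extraction software was Agilent Feature Extraction 10.7.1.1, per the submitters' processing notes, and 10.7.3.1, per the file headers. The deposited value table is also intensity on a linear scale, with a median of 16.76 in every column, uncentred, r of 0.9998 to 1 with the scanner values, and software not given in the sources used here. Control spots and outlier spots were dropped. The log2 signal was set relative to the 75th percentile of its array, spots of the same probe were averaged, and probes well above background in both replicates of 1 group or more were kept (30965 of 55681). The kept probe of highest mean stood for a gene. Gene symbols came from the deposited annotation through RefSeq tables, for 27235 probes by accession, 3581 by symbol and 565 by synonym.

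The 4 group means were fitted to all 21321 genes with limma 3.58.1 in R 4.3.3 (residual degrees of freedom 4, prior 1.812), with two-sided tests and Benjamini-Hochberg adjustment. Genes named were all 6 members, up to 4 called genes of smallest adjusted p of each list and comparison, up to 2 uncalled where under 2 were called, and the 3 nearest profiles of each member. The members and lists were chosen with earlier results of these data known. Replicate numbers pair the groups by the study's description of 2 experiments, and deviations from group means correlated at only 0.0177 to 0.131 between same-numbered arrays. The alternatives were normexp, quantile normalization, the deposited value table, no filter, every kept probe, outlier spots kept, an intensity trend, the experiment as a block and each array left out. The fit was tested on simulated data. The number of arrays limits the precision. No genome of the mm9 build was used, so exons and untranslated regions were not assigned. Some marker genes are not reported here.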

Additional observations from a re-analysis of the deposited data

Results flagged for a closer look

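In 6 results the withdrawal effect differed between scrambled and sponge cells by the test of that difference (sponge minus scrambled, limma). For the second Tcf4 probe the test came from the fit over all kept probes, and for the others from the fit over genes. The second Tcf4 probe differed by -0.76 (adjusted p = 0.0359), having risen in scrambled cells and not passed in sponge cells, while the first Tcf4 probe differed by -0.20 and did not pass (adjusted p = 0.413). The other 5 were Cdkn1a (1.61, adjusted p = 0.0307), Gfi1b (0.83, adjusted p = 0.0316), Hes1 (0.98, adjusted p = 0.0345), Usp1 (1.12, adjusted p = 0.0354) and Skp2 (1.33, adjusted p = 0.0451). Of these, Cdkn1a, Gfi1b, Hes1, Usp1 and Skp2 were lower after withdrawal in scrambled cells. None of the 6 was called with the experiment as a block, where the adjusted p was 0.0508 to 0.0773.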

How the results depend on the processing

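Among the 6 genes and the 3 second probes, 629 of 705 values under the alternatives kept their direction and side of the threshold. The count of called members after withdrawal in scrambled cells (4 as reported) was 6 under quantile normalization and in the deposited table, 5 with an intensity trend, 3 with no filter on dim probes, and 3 to 4 when 1 array was left out. The count after withdrawal in sponge cells (1 as reported) was 0 with no filter on dim probes, 2 with an intensity trend, and 0 to 2 when 1 array was left out. For sponge against scrambled without IL-7 (3 as reported) it was 1 to 3 when 1 array was left out, and 2 with the replicate block. For the difference of the withdrawal effects (0 as reported) it was 1 under normexp and 2 under quantile normalization, the deposited value table and the intensity trend. Apart from Tcf12 without IL-7 and the second Tcf4 probe, the replicate block changed no call of a member. After withdrawal in scrambled cells the share of all genes called was 48% under quantile normalization and 47.9% in the deposited table. It was 50.8% with the trend and 24.4% with no filter. In sponge cells it was 28.4% with the trend and 7.61% with no filter. For the difference of effects it was 7.72% under normexp, 7.82% under quantile normalization, 7.86% in the deposited table and 10.8% with the trend. The cause of these changes was not tested.

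Signs turned in uncalled values only, here with ranges over the fits without 1 array. For the sponge with IL-7, Id1 was at -0.065 under normexp (range -0.271 to 0.643), Id3 at -0.073 under quantile normalization and -0.061 in the deposited table (range -0.03 to 0.098), and the ranges were -0.187 to 0.204 for Id2, -0.183 to 0.044 for Tcf3, -0.004 to 0.054 for the second Tcf4 probe and -0.045 to 0.267 for the second Tcf12 probe. Without IL-7, Tcf3 ranged from -0.113 to 0.019. For the difference of effects, Tcf3 was at -0.044 under normexp, -0.031 under quantile normalization and -0.066 in the deposited table (range -0.091 to 0.136), and Id2 ranged from -0.349 to 0.043. After withdrawal in sponge cells, Tcf4 ranged from -0.056 to 0.149 and the second Tcf12 probe from -0.01 to 0.302. The second Tcf3 probe in scrambled cells was at 0.008 under quantile normalization.

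Over all genes, the difference of effects was called for 1124 genes as reported, 0 with the replicate block, 0 with no filter, 2305 with an intensity trend, and 0 to 1616 without 1 array. The sponge with IL-7 was called for 241 genes as reported, 394 under normexp, 82 with no filter, 996 with the trend, 151 with the replicate block and 38 to 1360 without 1 array. Withdrawal in sponge cells was called for 4939 genes as reported, 2644 with no filter and as few as 1738 without 1 array. Withdrawal in scrambled cells was called for 10251 genes and as few as 6770 without 1 array, and the sponge without IL-7 for 6842 and as few as 3416. With 2 arrays a group and Id1 close to background, small differences are not resolved.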
